A study of Mus musculus with 6 samples.

Results

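A set of 10 genes of hepatic iron handling was followed in Hepa 1-6 cells, a mouse hepatoma line, that received Sonic hedgehog (Shh) or vehicle. The genes were taken by symbol, and all 10 of the 10 symbols were found among the 18169 genes of the deposited table. They are Tfrc, Tfr2 and Slc11a2 for uptake, Fth1 and Ftl1 for storage, Slc40a1 for export, Hamp and Hfe for control by hepcidin, and Aco1 and Ireb2 for sensing. The study asked how Shh acts on hepatocytes in nonalcoholic steatohepatitis, and poly(A) RNA was sequenced from 3 vehicle and 3 Shh libraries. The sample labels, which name Hepa 1-6 cells with vehicle or Shh, were followed here, although the series' own design text speaks of exosomes and mouse livers. The labels call these cells mouse hepatocytes, and the cells are 1 transformed line that lacks the other cells of a liver. How much Shh these cells received, and for how long, is not stated in the sources used here. Since no label ties the libraries to separate cultures, every p-value below measures only the spread between these libraries, which may be technical.

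Iron bound to transferrin enters cells through the transferrin receptor, is reduced in endosomes and leaves them through the transporter Slc11a2. Iron that is not used is stored in ferritin, a shell of heavy (Fth1) and light (Ftl1) subunits, or exported by ferroportin (Slc40a1). The iron regulatory proteins Irp1 (Aco1) and Irp2 (Ireb2) bind a short stem-loop called the iron-responsive element when iron is scarce. In a 5′ UTR this binding blocks translation, and in the 3′ UTR of Tfrc it stabilizes the mRNA. Hepatocytes secrete hepcidin (Hamp), which removes ferroportin from the cell surface, and Hfe and Tfr2 act upstream of its transcription. Ferritin and ferroportin are therefore controlled in part at translation, a step that RNA counts do not record.

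The iron-responsive elements are shown because their place in a message bears on whether mRNA level can reflect their control. The search does not sort all 10 genes by kind of control, since it finds only elements of 1 pattern. They were read from the GENCODE M21 transcripts (GRCm38) by a search for the loop CAGTGN between 5 paired bases on each side, with an unpaired C below that stem, on the transcribed strand and with A-T, G-C and G-T counted as pairs. In each 27-base sequence the 6 loop bases are in capitals. The ferritin genes and ferroportin had 1 match each in the 5′ UTR, at chr19:9982733-9982759 on the + strand for Fth1, chr7:45459780-45459806 on the - strand for Ftl1 and chr1:45925466-45925492 on the - strand for Slc40a1.
Fth1: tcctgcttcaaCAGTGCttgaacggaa
Ftl1: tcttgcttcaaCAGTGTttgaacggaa
Slc40a1: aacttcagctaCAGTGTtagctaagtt

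In the 3′ UTR of Tfrc the pattern matched at 4 places on the + strand of chromosome 16. They are chr16:32631220-32631246, chr16:32631599-32631625, chr16:32631664-32631690 and chr16:32631711-32631737, given in that order. An element that departs from the pattern would not be found, so 4 counts matches only.
Tfrc, element 1: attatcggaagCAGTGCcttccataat
Tfrc, element 2: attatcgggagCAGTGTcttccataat
Tfrc, element 3: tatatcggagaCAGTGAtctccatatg
Tfrc, element 4: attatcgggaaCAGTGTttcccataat

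The pattern was found in 4 of the 10 genes, and in 294 (1.34%) of 21877 protein-coding genes searched. With at least 4 of the 5 lower stem positions also paired, it was found in the same number of the 10 genes and in 30 (0.137%) of all genes. A match is a description of the letters, and no match in Slc11a2, Hfe, Tfr2, Hamp, Aco1 or Ireb2 says only that this pattern was not in these transcripts. In GENCODE M21 the matched elements were in 4 of 5 protein-coding transcripts of Fth1, 1 of 2 of Ftl1, 1 of 4 of Slc40a1 and 1 of 3 of Tfrc. Gene-level counts do not separate transcripts with and without them.

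Total estimated counts ran from 20253781 to 20335463 per library, so depth was close to equal. All 10 hepatocyte markers checked had counts, with Alb at 19752 to 20644 and Afp at 7703 to 8106 per library, but Ttr, a major product of liver hepatocytes, had only 4 to 12 and Apoa1 48 to 69. The library Shh 1 stood apart from the other 5 in 3 of 5 sums over other cell types' markers. On the scale of CPM, counts scaled to library size, its summed 6 stellate cell markers reached 35.7 against 13.3 to 25.6, its 7 erythroid markers 13.3 against 5.99 to 8.67, and its 7 macrophage markers 20.9 against 14.4 to 18.1. Its sums of sinusoidal endothelial markers (13.9 against 12.6 to 14.1) and cholangiocyte markers (716 against 714 to 755) lay inside the range of the others. The macrophage marker Vsig4 was at 0 in Shh 1, as in every other library except vehicle 1, which held 1 count. Shh 2 stood apart in another way, since long transcripts stood higher and short transcripts lower in it. With the tested genes cut into 5 equal groups by length, the median log2 ratio to the vehicle mean in the longest group minus that in the shortest was 0.32 in Shh 2, 0.12 in Shh 3, 0.037 in Shh 1 and between -0.015 and 0.028 in the vehicle libraries.

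None of the 10 iron genes changed past the threshold after Shh. Tfr2 and Hamp fell short of the count filter. Of the 8 tested, 5 lay above 0 and 3 below 0 on the log2 scale, from -0.11 for Ftl1 to 0.14 for Ireb2. Their median log2 fold change was 0.034, against 0.0028 over all 12286 genes tested. By edgeR's quasi-likelihood test with Benjamini-Hochberg adjustment, 0 of 8 passed an adjusted p of 0.05, as did 0 (0%) of all genes, and DESeq2 also called 0. At an unadjusted p under 0.05 edgeR placed 0 of the 8 genes among the higher, where the background was 4.83%, and 1 among the lower, Ftl1, where it was 5.56%. On the CPM scale groups did not overlap upward for 0 of the 8 (6.79% of all genes) and downward for 1, again Ftl1 (8.67%). With 8 genes tested, a single gene is the smallest count above 0 that could be read against these backgrounds.

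The levels of the 10 genes ran from among the highest of the table to 0 and kept the same order in both groups. On the length-scaled FPKM scale, the ferritin genes led at 2451 ± 73.8 (SD, n = 3) for Ftl1 and 1906 ± 50.4 for Fth1 in vehicle cells, ranks 22 and 41 of 18169 genes. Aco1 followed at 38.3 ± 0.816, Tfrc at 29.6 ± 1.41 and Slc11a2 at 19.7 ± 0.350. Slc40a1 at 8.32 ± 0.314, Ireb2 at 6.85 ± 0.653 and Hfe at 3.60 ± 0.189 came next, then Tfr2 at 0.113 ± 0.0321, with Hamp listed at 0 in all 3 vehicle libraries. Within each group, neighbours in this order were separated by more than their spread, with exceptions in the Shh libraries. There the FPKM ranges of Slc40a1 (8.42 to 9.03) and Ireb2 (6.46 to 8.45) overlapped, and Hamp at 0.14 in Shh 1 exceeded the 0.10 to 0.12 of Tfr2. By FPKM the receptor Tfrc stood 276 ± 80.2-fold above its paralog Tfr2 in vehicle cells, and Irp1 mRNA 5.62 ± 0.503-fold above Irp2 mRNA.

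**Figure D1:**
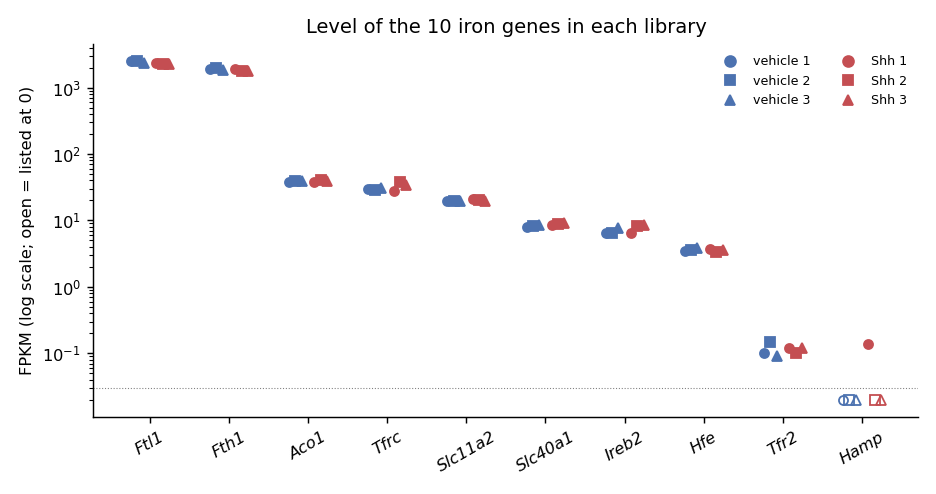
FPKM (log axis) of the 10 iron genes in each library, vehicle in blue and Shh in red, with the replicate number given by the symbol; open symbols below the dotted line are values listed at 0. Ftl1 and Fth1 lead, 6 genes from Aco1 to Hfe lie between, and Tfr2 and Hamp lie at or below 0.15 FPKM.

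Tfrc, which brings transferrin-bound iron into nearly all dividing cells, had a wide spread between the Shh libraries. Its level was 146, 139 and 152 CPM in the vehicle libraries and 137, 178 and 165 CPM in the Shh libraries. Shh 2 and Shh 3 lay above all vehicle libraries and Shh 1 lay below all of them, so the groups overlapped. The log2 fold change was 0.14 (SE 0.078, 95% interval -0.034 to 0.30, adjusted p = 0.536 by edgeR). This value depended on single libraries: without Shh 1 it was 0.24 with an adjusted p of 0.0468, which passes the threshold, and without Shh 2 it was 0.049 with an adjusted p of 0.931. Without Shh 1, 1.57% of all genes tested were also called, against 0% with all 6 libraries. When each library's trend with transcript length was removed as well, leaving out Shh 1 gave 0.16 with an adjusted p of 0.132.

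Slc11a2, the divalent metal transporter that moves iron out of the endosome, measured 70.3, 67.8 and 70.1 CPM in vehicle and 75.1, 71.55 and 69.3 CPM in Shh cells. The Shh values ran from below the highest vehicle value to above it, and the log2 fold change of 0.053 (SE 0.047, 95% interval -0.049 to 0.15) did not pass the test (adjusted p = 0.689, edgeR). Slc11a2 mRNAs with and without an iron-responsive element come from this 1 gene and were counted together. The search pattern used above did not match in this gene.

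Tfr2, the hepatocyte sensor of transferrin saturation, was near the limit of detection in this line. The libraries held 7, 10.04 and 5 estimated counts in vehicle and 7, 6 and 7 in Shh cells. All 3 Shh values lay inside the vehicle range. The gene failed the count filter and was not tested.

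Fth1, the ferroxidase subunit of ferritin, measured 1731, 1762 and 1664 CPM in vehicle and 1711, 1555 and 1593.5 CPM in Shh cells. Shh 2 and Shh 3 lay below all vehicle libraries and Shh 1 lay among them. The log2 fold change was -0.086 (SE 0.045, 95% interval -0.18 to 0.013, adjusted p = 0.510 by edgeR). Ftl1, the light subunit that favours mineral formation in the shell, measured 2304, 2339 and 2195 CPM in vehicle and 2192, 2042 and 2087 CPM in Shh cells. In CPM all 3 Shh libraries lay below all 3 vehicle libraries, although Shh 1 (2192 CPM) and vehicle 3 (2195 CPM) were nearly level. In FPKM Shh 1 (2369.72) lay just above vehicle 3 (2369.63), so the groups overlapped on that scale. The log2 fold change was -0.11 (SE 0.043, 95% interval -0.21 to -0.020), with an unadjusted edgeR p of 0.0214 and an adjusted p of 0.469. The counts of Ftl1 were not whole in all 6 libraries, as estimated counts are where reads are divided between features, and ferritin genes have many processed copies in the mouse genome. The counts of Slc11a2, Hfe and Aco1 were likewise not whole in all 6 libraries, and the levels of these 4 genes are uncertain to that extent. The 6 counts of Fth1, Tfrc, Slc40a1 and Ireb2 were whole.

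The ferritin pair together took 0.396% ± 0.0113 (SD, n = 3) of all counts in vehicle and 0.376% ± 0.0112 in Shh cells. Their ratio, which reads the H to L makeup of the ferritin message, was almost constant. Per kilobase, the Fth1 to Ftl1 ratio was 0.775, 0.777 and 0.782 in vehicle and 0.805, 0.785 and 0.788 in Shh libraries. Every Shh ratio lay above every vehicle ratio, and the mean log2 difference was 0.027, or 0.016 without Shh 1. A two-sided exact permutation test gave p = 0.10, which is the smallest that 3 against 3 libraries allow.

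The Tfrc to Fth1 ratio sets the main importer against the main store, a pair whose proteins iron moves in opposite directions. The ratio here is of mRNA only, so it does not record the control of ferritin at translation. It was 0.0154, 0.0145 and 0.0168 per kilobase in vehicle and 0.0146, 0.0210 and 0.0190 in Shh libraries. Shh 2 and Shh 3 were the highest of the 6, and Shh 1 lay within the vehicle range. The mean log2 difference was 0.21 (exact permutation p = 0.30, two-sided). It fell to 0.10 without Shh 2, rose to 0.36 without Shh 1, and was 0.062 once the trend with transcript length was removed.

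Slc40a1, ferroportin, the exporter of cellular iron, measured 27.3, 27.6 and 29.1 CPM in vehicle and 28.2, 29.1 and 29.9 CPM in Shh cells. The groups overlapped, and the log2 fold change of 0.055 (SE 0.056, 95% interval -0.067 to 0.18) gave an adjusted p of 0.734 by edgeR. Hamp, which encodes the ligand of ferroportin, had 0 counts in all vehicle libraries, 1 count in Shh 1 and 0 in Shh 2 and Shh 3. A count of 0 allows up to 3 counts, or 0.145 to 0.150 CPM in the 5 libraries at 0, and this limit covers counting error only. Hamp was therefore not detectable at this depth in 5 of 6 libraries, and the single count lay in the library with the highest sums of stellate, erythroid and macrophage markers. The part of those other markers in that count was not tested.

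Hfe, the membrane protein that joins Tfr2 in signalling to Hamp, measured 9.58, 9.61 and 10.6 CPM in vehicle and 10.2, 9.01 and 9.72 CPM in Shh cells. The groups overlapped with 1 Shh library below all vehicle libraries. Its log2 fold change of -0.043 (SE 0.087, 95% interval -0.23 to 0.15, adjusted p = 0.884 by edgeR) was the least precise of the 8 after that of Ireb2.

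Aco1, which encodes Irp1, the cytosolic aconitase that binds RNA once its iron-sulfur cluster is lost, had the smallest standard error of the 8 tested genes. It measured 162, 168 and 166 CPM in vehicle and 164, 169 and 169 CPM in Shh cells. The groups overlapped. The log2 fold change of 0.016 (SE 0.039, adjusted p = 0.904, edgeR) had a 95% interval of -0.068 to 0.10. Ireb2, which encodes Irp2, the regulator that is degraded when iron is plentiful, varied more. It measured 38.2, 37.2 and 44.0 CPM in vehicle and 37.3, 45.9 and 48.2 CPM in Shh cells. Shh 2 and Shh 3 were the highest of the 6, and Shh 1 sat with the 2 lowest vehicle libraries. The log2 fold change was 0.14 (SE 0.089, 95% interval -0.055 to 0.33, adjusted p = 0.575 by edgeR), and it moved with single libraries. It was 0.24 without Shh 1 (adjusted p = 0.0719 by edgeR) and 0.22 without vehicle 3, but 0.065 without Shh 3 and 0.092 without vehicle 2. Irp1 and Irp2 activity is set mainly at the protein, which these libraries did not measure.

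**Figure D2:**
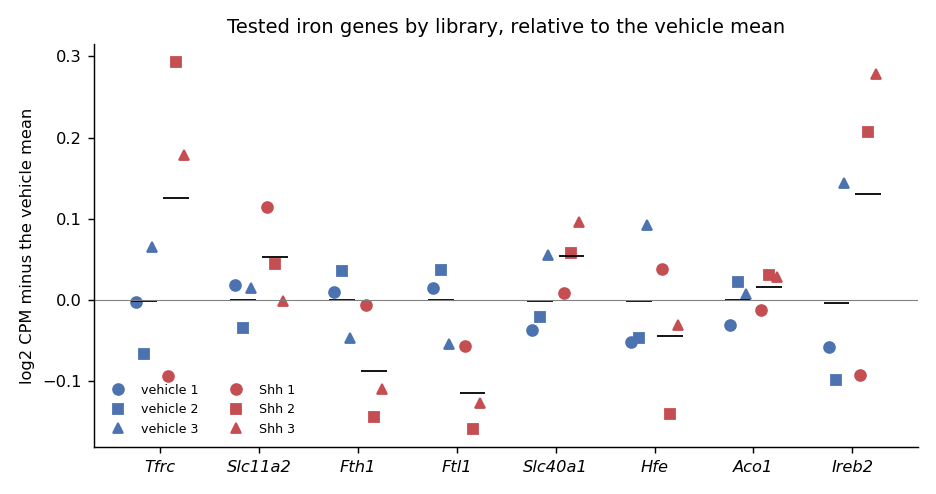
Log2 CPM of the 8 tested iron genes in each library minus the mean of the vehicle libraries, vehicle in blue and Shh in red, with black bars at the group means of the 3 libraries. Shh 2 and Shh 3 lie above the vehicle libraries for Tfrc and Ireb2 and below them for Fth1, while Ftl1 is the single gene whose 3 Shh points all lie below the 3 vehicle points.

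The libraries Shh 2 and Shh 3 lay above the vehicle libraries for Tfrc and Ireb2 and below them for Fth1, which Shh 1 did not. In CPM, Ftl1 was below the vehicle libraries in all 3 Shh libraries. Relative to the vehicle mean on the log2 scale, Tfrc stood at 0.29 in Shh 2, 0.18 in Shh 3 and -0.093 in Shh 1. Fth1 stood at -0.14, -0.11 and -0.0066 in the same libraries. These genes differ in length, 4870 bases for Tfrc and 893 bases for Fth1, and length moved with the difference across the whole table. Over 11471 tested genes with a length recovered from counts and FPKM, Spearman's rho between length and log2 fold change was 0.535, a description across genes, which are not independent replicates. The median log2 fold change was -0.090 in the shortest of the 5 length groups (median length 1091 bases) and 0.070 in the longest (5902 bases).

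Each tested iron gene was set beside the median of its length group, from which Tfrc, Ireb2 and Hfe lay furthest. Fth1 at -0.086 and Ftl1 (921 bases) at -0.11 compared with -0.090 for the shortest group, to which they belong. Tfrc and Ireb2 (5749 bases), both at 0.14, compared with 0.070 for the longest group. Slc11a2 (3502 bases) at 0.053 and Slc40a1 (3331 bases) at 0.055 compared with 0.035 for the next longest group, and Aco1 (4270 bases) at 0.016 lay below that value. Hfe (2753 bases) at -0.043 compared with 0.00010 for the middle group. Length here is that of the transcript, and whether RNA integrity, fragment size or another property moved with it was not tested.

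With an offset for length in each library, the differences of the storage and uptake genes shrank. Fth1 turned to 0.010, Ftl1 stood at -0.019, Tfrc at 0.078 and Ireb2 at 0.072, and Aco1 turned from 0.016 to -0.029. Hfe stood at -0.051, Slc11a2 at 0.026 and Slc40a1 at 0.032. No member had an unadjusted edgeR p under 0.05 in that fit, where 682 of 11471 genes did.

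**Figure D3:**
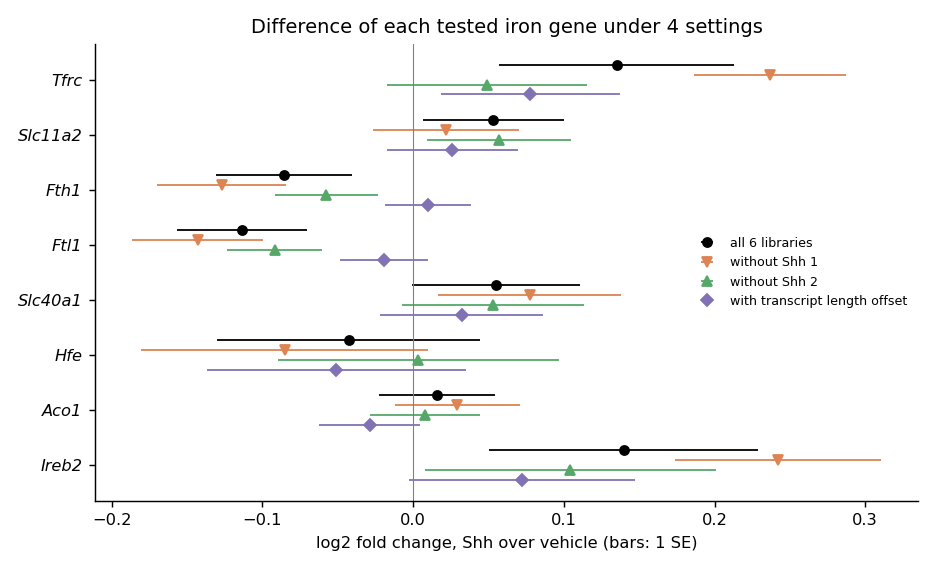
Log2 fold change (Shh over vehicle, bars of 1 SE) of the 8 tested iron genes with all 6 libraries, without Shh 1, without Shh 2 and with the transcript length offset. Tfrc runs from 0.049 without Shh 2 to 0.24 without Shh 1, and Fth1 and Ftl1 move to 0.010 and -0.019 with the offset.

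**Figure D4:**
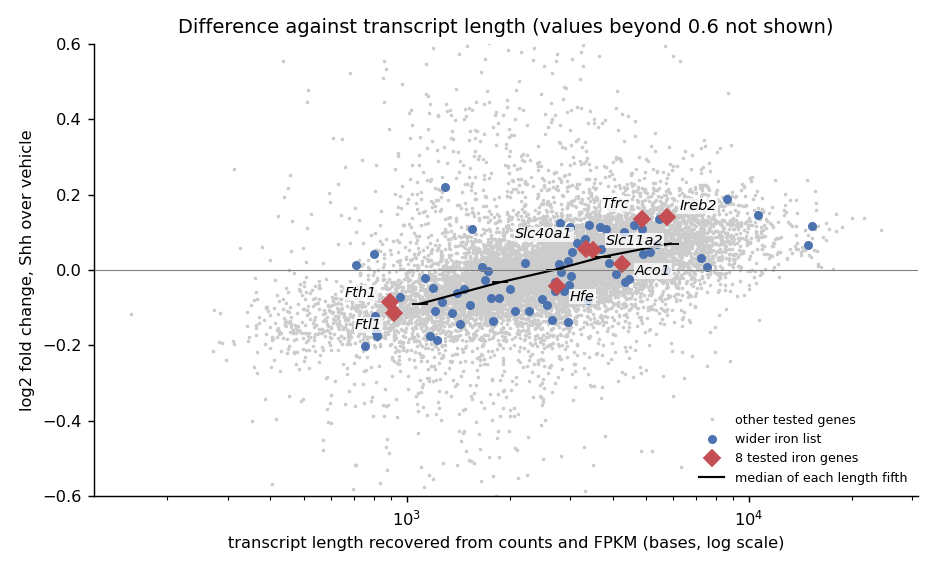
Log2 fold change (Shh over vehicle) against transcript length (bases, log axis) for tested genes with a recovered length, with the wider iron list in blue, the 8 tested iron genes in red and a black line through the medians of 5 equal length groups. The medians rise from -0.090 to 0.070, with Fth1 and Ftl1 at the short end and Tfrc and Ireb2 at the long end.

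The wider iron list holds 96 symbols, of which 90 matched the table and 78 were tested. By edgeR, 0 of 78 passed an adjusted p of 0.05, and 4 higher and 9 lower genes had an unadjusted p under 0.05. These shares of the 78 stand beside backgrounds of 4.83% and 5.56%. The median log2 fold change was -0.022, with 34 genes above 0 and 44 below. Over all genes tested, 6285 lay above 0 and 6001 below. By edgeR with all 6 libraries and no length offset, no gene of this list named below had an adjusted p under 0.469.

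In the uptake group 5 of 10 tested genes lay above 0, and with the length offset 2 of 7. Trf, transferrin itself, which hepatocytes secrete, measured 600, 592 and 588 CPM in vehicle and 570, 535 and 545 CPM in Shh cells. All Shh values lay below all vehicle values, and the log2 fold change was -0.11 (SE 0.039, unadjusted edgeR p of 0.0171 and adjusted p of 0.469). The importer of iron not bound to transferrin, Slc39a14, stood at 0.041 and its relative Slc39a8 at 0.11, the latter with no overlap between groups. The metalloreductase Steap1 stood at -0.17 with overlap, and at -0.10 with the offset, -0.090 without vehicle 2 and -0.092 without Shh 2. Slc39a14 stood at 0.0034 without Shh 3.

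In storage and ferritin turnover, Ncoa4, the receptor that carries ferritin to the lysosome, measured 63.1, 65.7 and 70.2 CPM in vehicle and 68.5, 74.6 and 73.2 CPM in Shh cells. The groups overlapped through Shh 1, and the log2 fold change was 0.12 (unadjusted edgeR p of 0.0426 and adjusted p of 0.477). The ligase Herc2, which acts on Ncoa4, stood at 0.12 and the iron chaperone Pcbp1 at 0.0093. With the length offset Herc2 stood at 0.021 and Ncoa4 at 0.096. Among export genes, the ferroxidase Cp stood at 0.019, the heme exporter Flvcr1 at 0.12, Flvcr2 at -0.080 and the transporter Abcg2 at 0.018. Flvcr1 stood at 0.062 without Shh 2 and 0.19 without Shh 1, and Flvcr2 ran from -0.0081 without Shh 3 to -0.16 without Shh 2, with -0.026 without vehicle 1.

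Of the 18 tested genes of hepcidin control, 13 lay above 0, among them the receptor Bmpr2 at 0.15 and the transducer Smad5 at 0.12, while B2m, the partner of Hfe, lay at -0.12. With the length offset B2m stood at -0.022, Bmpr2 at 0.053 and Smad5 at 0.069, and without Shh 2 Bmpr2 stood at 0.073, whereas it was 0.22 without Shh 1. Without Shh 2 the split was 8 above and 10 below. The regulators closest to Hamp were near 0 counts. Hjv, the co-receptor hemojuvelin, had 0, 1 and 1 counts in vehicle and 0 in each Shh library. Tmprss6, the protease that cleaves hemojuvelin, had 6, 1 and 6 in vehicle and 3, 6 and 2 in Shh libraries, and Bmp6, the ligand, had 3, 4 and 4 in vehicle and 10, 5 and 9 in Shh libraries. Bmp6 did not overlap between groups, but its counts were under the filter and it was not tested. Hamp2 was not analysed here. A single iron sensor gene of the 9 tested had an unadjusted edgeR p under 0.05, against 4.83% of all genes among the higher, and it was Cdc42bpa at 0.19, in whose human message an iron-responsive element is known. Cdc42bpa stood at 0.10 both without Shh 2 and with the length offset. With the offset, 0 genes of this group among the higher and 1 among the lower had such a p. In that fit 682 of 11471 genes had such a p in either direction. The iron-sensing ligase subunit Fbxl5, which marks Irp2 for degradation, stood at 0.015, with Ciao3 at -0.11 (-0.059 without Shh 2, -0.063 without vehicle 2) and Epas1 at 0.11 (0.053 with the offset).

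The 2 groups that lay mostly below 0 were those of heme and of mitochondrial iron. Over all 12286 genes tested, 6001 lay below 0. In heme handling 12 of 15 tested genes lay below 0 (median -0.073), with biliverdin reductase Blvrb at -0.16, the heme carrier hemopexin Hpx at -0.14 and the synthesis enzyme Alad at -0.11. Alad measured 421, 426 and 411 CPM in vehicle and 397, 387 and 377 CPM in Shh cells, with no overlap. In mitochondrial iron and iron-sulfur cluster genes 16 of 18 lay below 0 (median -0.074), with the ferredoxins Fdx1 at -0.19 and Fdx2 at -0.20. Fdx2 measured 28.6, 25.9 and 25.8 CPM in vehicle and 23.5, 22.2 and 24.1 CPM in Shh cells, with no overlap. These are short messages, with a median length of 1527 bases in the heme group and 1625 bases in the mitochondrial group, against 2690 over all genes tested. With the length offset 9 of 15 heme genes and 15 of 18 mitochondrial genes lay below 0, with medians of -0.039 and -0.050, respectively. At an unadjusted edgeR p under 0.05, 4 heme and 3 mitochondrial genes were among the lower with no offset, where the background was 5.56% of all genes tested. With it 2 heme genes and 1 mitochondrial gene were among the lower and 1 heme gene among the higher, in a fit where 682 of 11471 genes had such a p in either direction. With the offset Blvrb stood at -0.065, Hpx at -0.089, Alad at -0.052, Fdx1 at -0.12 and Fdx2 at -0.095, and without Shh 2 Blvrb stood at -0.11 and Hpx at -0.089. Blvrb fell past the threshold without Shh 1 (log2 fold change -0.23, adjusted p = 0.0480 by edgeR) but not with the offset added (adjusted p = 0.369).

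The genes most like Tfrc over the 6 libraries, among 9842 with at least 5 CPM, were Larp4 (Pearson's r = 0.998), Scyl2 (0.996) and Supt16 (0.994). Those most like Fth1 were Klc1 (0.999), Ggct (0.998) and Mpg (0.994). These coefficients rank likeness over the same 6 libraries, in which the length trend was largest in Shh 2, followed by Shh 3. With so many candidates, values this high carry no test.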

How the data were processed

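Poly(A) RNA of Hepa 1-6 cells from 3 vehicle and 3 Shh libraries was sequenced on the BGISEQ-500 platform. The authors deposited estimated counts per gene, in which 36.4% of values above 0 were not whole, and FPKM per gene. Bowtie2 is named, with no version, in the processing notes of the submitters, and neither a counting tool nor a genome build was found in the sources used here. Of the deposited columns, 6 of TPM and 6 of group averages were left out. The columns headed control were read as the vehicle libraries.

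Estimated counts were rounded and tested in edgeR 4.0.16 (R 4.3.3) with TMM factors, filterByExpr (minimum count 10, minimum total 15) and the quasi-likelihood test, adjusted by Benjamini-Hochberg over all 12286 genes tested; 0.05 was the threshold. CPM used TMM library sizes. Log2 CPM of the iron genes relative to the vehicle mean had nothing added. A small constant was added to CPM before the log2 for likeness, pairing and the length groups by library. Levels between genes were compared in the deposited FPKM. Transcript length was recovered from counts and FPKM where FPKM was at least 0.5 (11701 genes). The fit was repeated with DESeq2 1.42.0, with a filter of 5 CPM in 3 libraries or none, with upper-quartile factors, with a replicate block, with a length offset (spline, 5 degrees of freedom) and with each library left out; leaving out Shh 1 or Shh 2 together with the offset was added after seeing the data. Group ratios were compared by two-sided exact permutation. The scripts were tested on simulated data.

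The 10 genes, the wider list and the marker lists were chosen with earlier results of these data known. Named from the wider list were Trf, Slc39a14, Ncoa4, Fbxl5, Hjv, Tmprss6, Bmp6, Hamp2 and Cp, and up to 3 tested genes of smallest p per group. A gene that this rule names is not reported here. Of the wider list's 96 symbols, 6 had no match and were not analysed here. Total counts of 20253781 to 20335463 per library set the counting error.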

Additional observations from a re-analysis of the deposited data

How the results depend on the processing

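DESeq2, upper-quartile factors, the stricter filter and the replicate block moved no count of calls. Replicate numbers gave no pairing, since the deviations of same-numbered libraries correlated at -0.023, -0.054 and 0.079. With the replicate block 0 genes were called. Pairing could not move the Fth1 to Ftl1 and Tfrc to Fth1 differences of 0.027 and 0.21. The mean of paired differences equals the difference of the group means. Genes called numbered 0 with all libraries, 1 without a filter, 1 with the length offset, 5 with the replicate block and the offset, 2 with the offset without Shh 2 and 10 with the offset without Shh 1. Leaving out each library gave 0 to 195 genes called (195 without Shh 1), 0 to 1 of the 10 iron genes called (Tfrc, without Shh 1), 0 to 1 of the wider list called (Blvrb), 0 to 4 iron genes and 5 to 26 wider genes at an unadjusted edgeR p under 0.05, and wider list medians of -0.050 to -0.011. Iron genes at an unadjusted p numbered 0 with the offset, with the block and offset, and with the offset without Shh 2, and 2 with the offset without Shh 1. Wider genes at an unadjusted p numbered 6 under each of the first 3 of these and 16 with the offset without Shh 1, against 13 with all libraries and no offset. The median of the iron genes became -0.0022 with the offset without Shh 1. Signs turned for uncalled values, among them Fth1 (-0.086 in the fit as reported) and Herc2 (0.12): with the offset, Fth1 0.010, Aco1 -0.029, Slc39a14 -0.014 and Cp -0.018; with the block and offset, Fth1 0.0099, Aco1 -0.029, Slc39a14 -0.014 and Cp -0.018; with the offset without Shh 1, Slc11a2 -0.0099, Fth1 0.0056, Aco1 -0.030, Slc39a14 -0.015, Cp -0.033 and Herc2 -0.029; with the offset without Shh 2, Aco1 -0.015, Cp -0.054 and Abcg2 -0.020; without vehicle 1, Fbxl5 -0.015; without vehicle 2, Cp -0.020; without vehicle 3, Hfe 0.0074 and Pcbp1 -0.017; without Shh 1, Pcbp1 -0.0086; without Shh 2, Hfe 0.0036, Cp -0.035 and Abcg2 -0.016; without Shh 3, Fbxl5 -0.016. The cause of these turns was not tested. Over each library left out, Hfe ran from -0.085 to 0.0074, Fbxl5 from -0.016 to 0.051, Cp from -0.035 to 0.074, Abcg2 from -0.016 to 0.042 and Pcbp1 from -0.017 to 0.030. Under the alternatives 452 single-gene values kept their direction and side of the threshold, 26 turned sign, and 2 newly passed it (Tfrc and Blvrb, without Shh 1). Depth limits Hamp, Tfr2, Hjv, Tmprss6 and Bmp6, which had at most 10.04 counts per library.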
